A study of Mus musculus with 6 samples.

Results

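This section describes 45 interferon-stimulated and antigen presentation genes, of the 49585 genes in the deposited count table, in AML12 cells transfected with Zac1 or with EGFP. The genes were chosen by name, from a list of antiviral effectors, interferon-induced GTPases, sensors, transcription factors, parts of the MHC class I pathway and 2 secreted products, and each was found in the table by its Ensembl identifier. AML12 is an immortalised mouse hepatocyte line, first grown from a mouse that carried a transgene for human TGF-alpha. The control group was 3 libraries (EGFP 1, EGFP 2 and EGFP 3) from cells that received a construct with EGFP, a fluorescent protein. The other group was 3 libraries (Zac1 4, Zac1 5 and Zac1 6) from cells that received a construct with Zac1, a DNA-binding zinc finger protein whose gene, Plagl1, is imprinted. RNA was taken 24 h after transfection and polyA RNA was sequenced. Both groups were transfected, and no untransfected cells were analysed here.

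Type I interferons are secreted when a cell detects foreign nucleic acid, and they bind a receptor whose kinases activate STAT proteins. A complex that includes STAT2 and IRF9 then binds the interferon-stimulated response element (ISRE) in the promoters of many genes, while the shorter GAS element serves above all the response to interferon gamma. The products bind or degrade viral RNA, tag proteins, hold back budding virus and signal further, and they raise the presentation of peptides on MHC class I, which hepatocytes carry at low levels at rest.

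The promoters are shown first, to set out which of these genes hold the element of the pathway near their start. RefSeq windows of 250 bases before to 50 bases after the gene start (GRCm38.p6) were at hand for 35 of the 45 genes. The ISRE core was searched as GAAANNGAAA on both strands, with overlapping matches counted. It occurred in 18 of the 35 windows (51.4%), against 3.99% of 27025 genes with a window, and in 17 of the 18 it lay upstream of the start; in Ifih1 it began 33 bases after it. The GAS core, TTCNNNGAA, which is its own reverse complement, occurred in 9 of the 35 (25.7%), against 9.55% of genes. A match is a run of letters and not a measured binding site, and nothing was measured at these promoters.

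The stretches below run 5′ to 3′ along the gene's strand, with the bases of each ISRE core match in capitals and up to 12 bases on either side in lower case. Runs that begin with TTTC are the same core read on the other strand. Ifit1 (chr19:34640773-34640825), Ifit3 (chr19:34583361-34583428) and Ifit3b (chr19:34607757-34607824) are on the plus strand, and each had 2 separate cores. The Ifit3 and Ifit3b stretches were identical, although their whole windows, set side by side at the best shift, matched at 201 of 268 bases (75%). Oas1a (chr5:120907526-120907557) and Oas1g (chr5:120887614-120887643), on the minus strand, shared a pair of overlapping cores that ended close to the start.
Ifit1: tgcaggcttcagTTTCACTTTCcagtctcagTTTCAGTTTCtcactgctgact
Ifit3: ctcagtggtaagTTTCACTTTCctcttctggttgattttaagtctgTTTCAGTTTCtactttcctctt
Ifit3b: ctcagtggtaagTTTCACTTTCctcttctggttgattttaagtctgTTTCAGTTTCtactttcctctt
Oas1a: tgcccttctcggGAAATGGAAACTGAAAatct
Oas1g: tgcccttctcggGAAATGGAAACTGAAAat

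Further stretches are shown for 7 of the other genes with a match. Isg15 (chr4:156200863-156200908, minus strand) had 3 overlapping cores, and Irgm1 (chr11:48871423-48871462, minus strand) had 2. Rsad2 (chr12:26456551-26456584, minus strand), Cxcl10 (chr5:92349081-92349114, minus strand), Stat2 (chr10:128270264-128270297, plus strand) and B2m (chr2:122147536-122147569, plus strand) had 1 each. So did Igtp (chr11:58199510-58199543, plus strand), a gene with almost no reads here.
Isg15: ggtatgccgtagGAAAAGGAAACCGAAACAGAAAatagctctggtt
Irgm1: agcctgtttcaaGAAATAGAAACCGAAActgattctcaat
Rsad2: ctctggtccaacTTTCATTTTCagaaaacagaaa
Cxcl10: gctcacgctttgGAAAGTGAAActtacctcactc
Stat2: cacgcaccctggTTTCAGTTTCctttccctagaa
B2m: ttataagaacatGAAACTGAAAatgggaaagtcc
Igtp: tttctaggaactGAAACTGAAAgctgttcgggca

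The libraries held 14801240 to 18302538 counted reads. Plagl1, the gene of the transfected factor, was at 2.6, 5.31 and 4.53 CPM (counts scaled to library size) in EGFP 1, 2 and 3 and at 6604, 7937 and 8072 CPM in Zac1 4, 5 and 6, so every library matched its label. EGFP 1 and Zac1 4 were the lowest of their groups for Plagl1. They also stood apart from the other 4 libraries on the second principal component of all tested genes, which held 20.2% of the variance. The hepatocyte markers Apob, Hnf4a, Krt8, Krt18 and Alb were present and Apoa2 was at 0. The 12 listed hepatocyte markers summed to 4892 to 5416 CPM. Of 13 leukocyte markers, Itgam, Tyrobp, Clec4f, Cd3e and Siglech were at 0 in every library. The 13 summed to 45.8 to 54.5 CPM, of which Cd14 alone made up 43.6 to 51.6 CPM.

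Most of the interferon genes were expressed in both groups. Over the 6 libraries, 42 of the 45 had at least 10 reads on average, and these were tested. Ifi47 was at 0 in every library, where a count of 0 allows up to 3 reads, or 0.164 to 0.203 CPM per library. Igtp and Ifi27l2a had 1 read each, both in EGFP 1. Igtp, Ifi47 and Irgm1 encode immunity-related GTPases of one family, and Irgm1 stood at 481 ± 47.0 CPM (SD, n = 3) in the EGFP group. On the same strand, 8.01% of the exon bases of Igtp overlap Irgm2 and 4.49% of those of Ifi47 overlap Olfr56. Reads there could be exchanged or dropped in counting.

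Levels were compared between genes per kilobase (kb) of exon, in the EGFP group. B2m, the invariant light chain of MHC class I, was highest at 909 ± 90.1 CPM per kb (SD, n = 3), and Bst2, a membrane protein that tethers budding virus, followed at 289 ± 31.3. Ifit1 stood at 194 ± 33.2 and Isg15 at 182 ± 24.9 CPM per kb, which did not differ beyond their spread. Irgm1 (82.9 ± 8.08), Usp18 (71.0 ± 10.3) and Parp12 (65.9 ± 7.45 CPM per kb) came next. The mean ± SD ranges of Irgm1 and Parp12 did not overlap, while that of Usp18 overlapped each. At the low end were Psmb9 at 2.30 ± 0.712, Oas2 at 1.2 ± 0.352 and Ifnb1 at 1.17 ± 0.549 CPM per kb.

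None of the 42 tested genes differed between Zac1 and EGFP by edgeR's quasi-likelihood test with Benjamini-Hochberg adjustment at 0.05. The same test called 378 of 12130 genes higher in Zac1 (3.12%) and 81 lower (0.668%). At an unadjusted p under 0.05 it found 11 of the 42 genes, all lower in Zac1 (26.2%), against 780 of all tested genes on the lower side (6.43%). DESeq2 called 1 gene lower (Ifit2), where it called 0.775% of all genes lower, and limma on log2(CPM + 1) called 0, against 0.602%. Voom with library quality weights called 5 lower (Ifit1, Ifit2, Rsad2, Mx1 and Ifih1), against 4.12% of all genes. Without the filter on low counts edgeR called 15 of 44 lower, against 1.14% of 21764 genes, in a fit that shared the variance between genes wholly.

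The differences were small and mostly on 1 side. The log2 fold change, Zac1 minus EGFP, was below 0 for 37 of the 42 genes (88.1%), against 50.5% of all tested genes, with a median of -0.17 and a range from -0.65 (Mx1) to 0.05 (Bst2). The median over all tested genes was 0.00. The Zac1 and EGFP values overlapped for each of the 42 genes, where 8.75% of all tested genes had all Zac1 values below all EGFP values and 11.9% the reverse. Without EGFP 1 the median was -0.31, without EGFP 2 it was -0.10, and without EGFP 3 or without Zac1 4 it was -0.09. The edgeR count was 19 lower without EGFP 1, against 1.03% of all genes, and 0 without EGFP 2, EGFP 3, Zac1 5 or Zac1 6. Without Zac1 4 it was 1 (Ifit2), no more than the 3.13% of all genes called lower in that fit.

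The larger difference was between libraries of the same group. EGFP 1 was the lowest of the EGFP libraries for 42 of 42 genes, against 38.1% of all tested genes, and Zac1 4 was the lowest of the Zac1 libraries for 40 of 42, against 41.5%. Both lay below each of the other 4 libraries for 38 of the 42, against 13.7%. The level in EGFP 1 was a median of 0.687 times the mean of EGFP 2 and 3 (0.995 over all tested genes), from 0.360 for Ifnb1 to 0.902 for Irf9. The level in Zac1 4 was a median of 0.804 times the mean of Zac1 5 and 6 (0.992 over all tested genes), from 0.586 for Psmb9 to 0.938 for B2m. The list was drawn up with this pattern known, so these values describe the genes and test nothing.

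Set side by side, the libraries fell into 3 levels. The 42 genes summed to 4461 CPM in EGFP 1 and 4341 CPM in Zac1 4, to 5080 and 5224 CPM in Zac1 5 and 6, and to 5788 and 5984 CPM in EGFP 2 and 3. The low libraries were alike, with a median ratio of Zac1 4 to EGFP 1 of 0.966, below 1 for 28 of 42 genes. The median ratio of Zac1 5 and 6 to EGFP 2 and 3 was 0.854, below 1 for 40 of 42 genes. EGFP 1 held the most reads of its group (15145092) and Zac1 4 the fewest of its group (16104498). The leukocyte markers summed to 45.8 CPM in Zac1 4 and to 49.1 to 54.5 CPM in the other 5 libraries. In bulk RNA, fewer responding cells and less RNA per cell cannot be told apart.

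**Figure D1:**
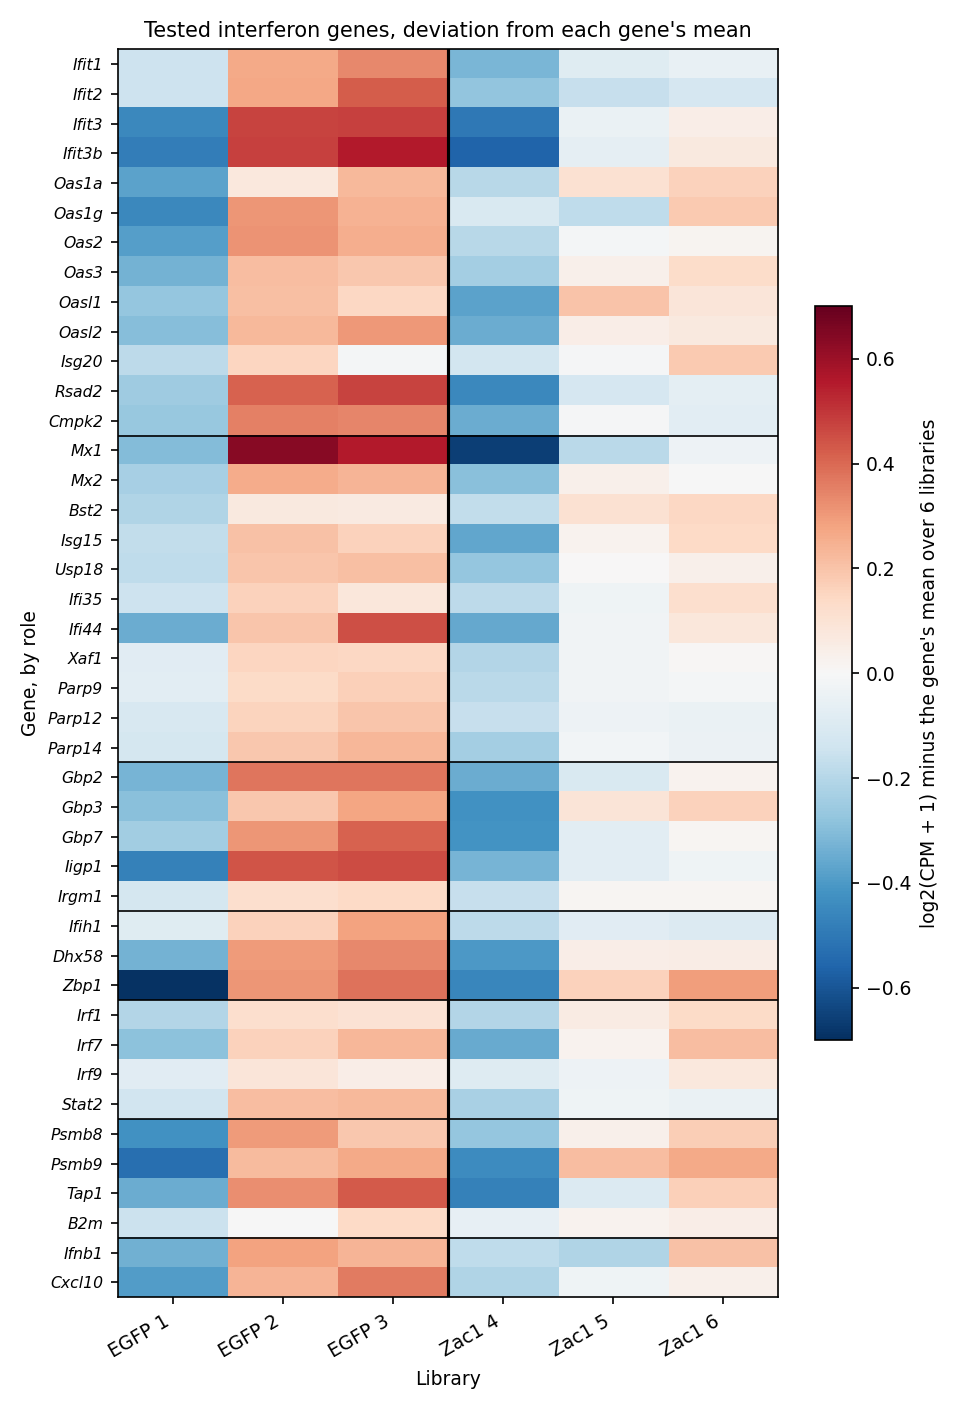
Each row is one of the 42 tested genes, grouped by role, and each column a library; the colour gives log2(CPM + 1) minus the gene's mean over the 6 libraries, blue below and red above. The columns of EGFP 1 and Zac1 4 are blue for every gene (median deviation -0.27 in each), EGFP 2 and 3 are red for nearly all (0.22 and 0.24), and Zac1 5 and 6 lie near 0 (-0.02 and 0.05).

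**Figure D2:**
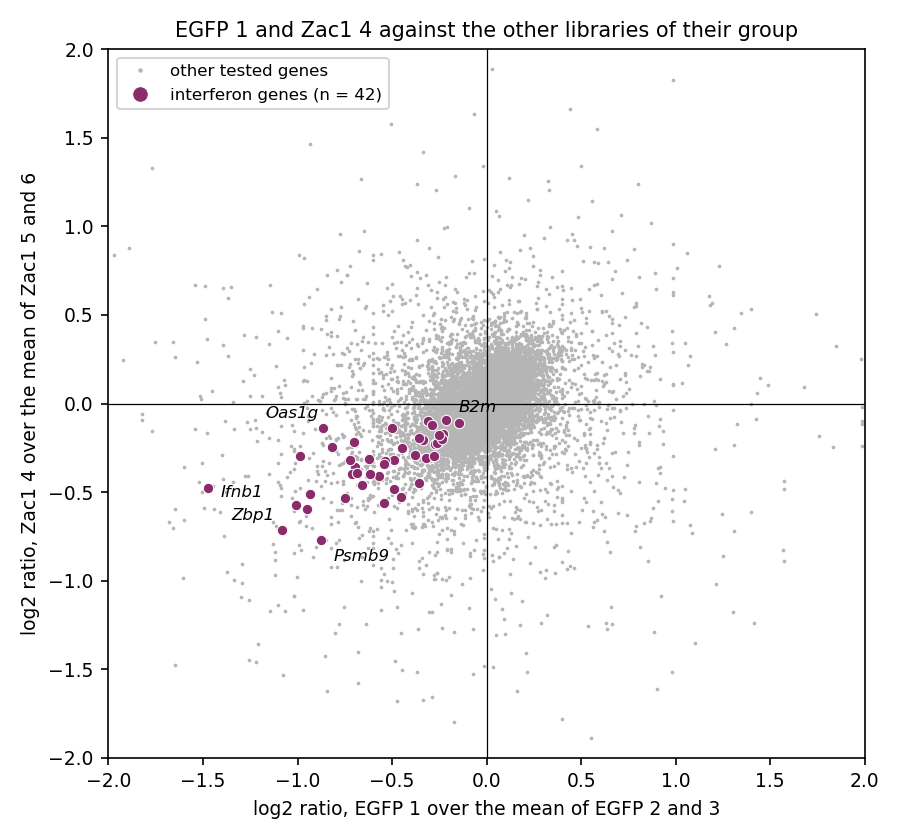
Each point is a tested gene, placed by the log2 ratio of EGFP 1 to the mean of EGFP 2 and 3 (x axis) and of Zac1 4 to the mean of Zac1 5 and 6 (y axis); 46 other genes lie outside the axes. All 42 interferon genes (purple) lie at the lower left, below 0 on both axes, while the other genes (grey) spread around 0 on both axes.

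All 42 genes had a negative loading on the second principal component, where EGFP 1 and Zac1 4 scored 10.58 and 11.51 and the others -8.68 to -2.46. A negative loading was found for 52% of all tested genes. Of the 10 genes with the lowest loadings 4 were among the 42, led by Zbp1, Ifit3b and Mx1, and of the lowest 100 genes 17 were. The 42 were part of 12130 tested genes. The component was computed from the same values with these genes included, so the loadings restate the pattern above and test nothing.

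Among the effectors that bind or degrade viral RNA, 13 genes were tested and the fold change was below 0 for 11, with a median of -0.18. The IFIT proteins bind viral RNA that lacks a normal cap and lie side by side on chromosome 19 (Ifit1 at 34640871 to 34650009, GRCm38). Ifit1 was at 415, 553 and 579 CPM in EGFP 1, 2 and 3 and at 368, 433 and 443 CPM in Zac1 4, 5 and 6. Zac1 5 and 6 lay above EGFP 1 and far below EGFP 2 and 3. The log2 fold change was -0.31 ± 0.10 (SE, adjusted p = 0.116, edgeR).

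Ifit2 (chromosome 19, 34550694 to 34576419), another member of the family, was at 85.6, 115 and 127 CPM in EGFP and at 78.0, 84.5 and 87.4 CPM in Zac1. Zac1 6 exceeded EGFP 1, and the other Zac1 libraries lay below all of EGFP. It had the lowest adjusted p of the 42, 0.0627, with a log2 fold change of -0.39 ± 0.11 (SE, edgeR). Over the other fits its adjusted p ran from 1.64e-13 to 0.348.

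Rsad2 encodes viperin, a radical SAM enzyme that makes a chain-terminating nucleotide, and its neighbour on chromosome 12, Cmpk2, encodes a nucleotide kinase. Rsad2 was at 107, 169 and 177 CPM in EGFP and at 92.5, 117 and 121 CPM in Zac1 (log2 fold change -0.45 ± 0.14 SE, adjusted p = 0.116, edgeR). Cmpk2 was at 62.3, 96.4 and 95.7 CPM in EGFP and at 58.9, 74.9 and 71.4 CPM in Zac1 (-0.31 ± 0.13 SE, adjusted p = 0.267, edgeR). In both genes, as in Ifit1, EGFP 1 and Zac1 4 were lowest and EGFP 2 and 3 highest.

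Ifit3 and Ifit3b, whose promoter stretches were identical, are described as a pair chosen after their values were seen. Ifit3 was at 50.2, 95.9 and 96.3 CPM in EGFP and at 48.5, 66.8 and 71.2 CPM in Zac1. Ifit3b was at 70.1, 138 and 145 CPM in EGFP and at 66.4, 94.0 and 103 CPM in Zac1. Both were close to level in EGFP 1 and Zac1 4, and higher in EGFP 2 and 3 than in Zac1 5 and 6. Of the 50-base words in their annotated transcripts, 51.2% of those of Ifit3 also occurred in Ifit3b, so reads of these genes could be exchanged or dropped in counting.

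The oligoadenylate synthetases make the second messenger that switches on RNase L. Of these, 6 were tested, counting the catalytically inactive homologue Oasl1 and its relative Oasl2. Their fold changes ran from -0.18 (Oas2) to 0.04 (Oas1a), with adjusted p from 0.588 to 0.923 (edgeR). Oas1g and Ifnb1 were the genes in which Zac1 4 was not the lowest of its group, and 57.6% of the 50-base words of Oas1a also occurred in Oas1g. Isg20, an exonuclease for single-stranded RNA, had a fold change of 0.03 ± 0.09 (SE, adjusted p = 0.900, edgeR).

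**Figure D3:**
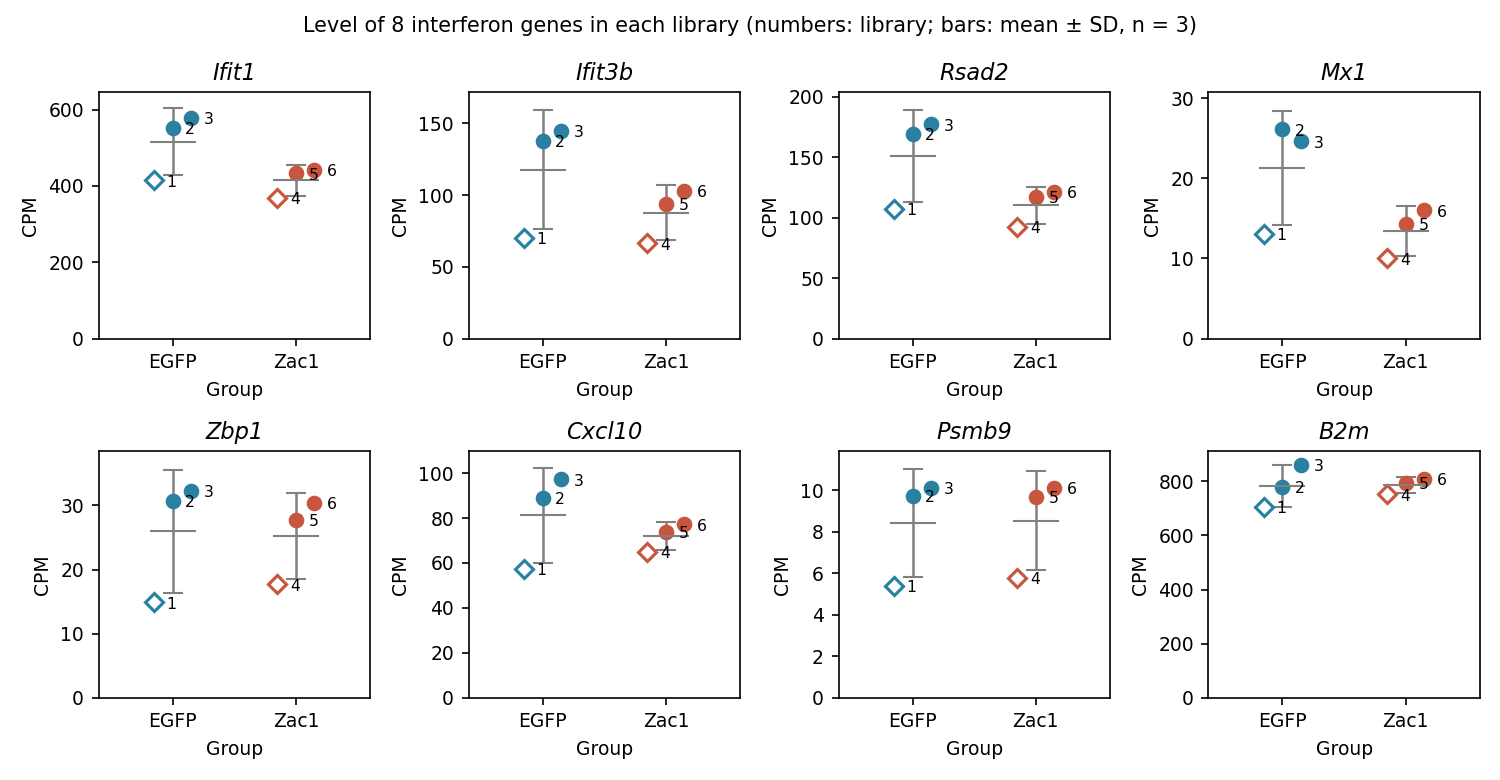
CPM of 8 genes in each library, EGFP in blue and Zac1 in red, with open diamonds for EGFP 1 and Zac1 4, the library number beside each point, and grey bars for the mean ± SD (n = 3); each y axis starts at 0. In Ifit1, Ifit3b, Rsad2 and Mx1 the points of Zac1 5 and 6 lie between EGFP 1 and the pair EGFP 2 and 3, whereas in Zbp1, Psmb9 and B2m the 2 groups cover much the same range.

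The other antiviral effectors included 11 tested genes, of which 10 had a fold change below 0 (median -0.16). Mx1, a dynamin-like GTPase that traps viral ribonucleoproteins (chromosome 16, 97447035 to 97462907), had the largest difference of the 42. It was at 13.1, 26.1 and 24.6 CPM in EGFP and at 10, 14.3 and 16 CPM in Zac1. EGFP 1 lay between Zac1 4 and Zac1 5, so the groups overlapped. The log2 fold change was -0.65 ± 0.21 (SE, adjusted p = 0.120, edgeR), and its adjusted p ran from 1.1e-09 to 0.456 over the other fits.

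The 3 poly(ADP-ribose) polymerases of the list are interferon-induced members of that enzyme family. Parp14 was at 202, 251 and 258 CPM in EGFP and at 187, 217 and 214 CPM in Zac1 (log2 fold change -0.20 ± 0.08 SE, adjusted p = 0.245, edgeR). Parp12 was at 229, 277 and 284 CPM against 221, 241 and 240 CPM (-0.17 ± 0.07 SE, adjusted p = 0.267, edgeR). In Parp9, at 133, 154 and 158 CPM against 123, 138 and 139 CPM, the fold change was -0.16 ± 0.07 (SE, adjusted p = 0.297, edgeR). All 3 showed EGFP 1 below Zac1 5 and 6 and above Zac1 4.

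Isg15, a ubiquitin-like protein that is joined to other proteins, and Usp18, the protease that removes it, had fold changes of -0.12 ± 0.11 and -0.16 ± 0.10 (SE, adjusted p = 0.647 and 0.460, edgeR). Bst2 had the highest fold change of the set, 0.05 ± 0.08 (SE, adjusted p = 0.820, edgeR). The remaining 4 genes of this role, Mx2, Ifi35, Ifi44 and Xaf1, ran from -0.23 to -0.06, with adjusted p from 0.376 to 0.780.

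All 5 tested interferon-induced GTPases, proteins that gather on the vacuoles of intracellular pathogens, had a fold change below 0, with a median of -0.31. Gbp7 was at 43.1, 63.7 and 68.5 CPM in EGFP and at 38.1, 48.6 and 51.6 CPM in Zac1 (log2 fold change -0.34 ± 0.14 SE, adjusted p = 0.251, edgeR). Gbp2, on the same stretch of chromosome 3, was at 28.3, 46.6 and 46.7 CPM against 27.9, 33.2 and 36.4 CPM (-0.31 ± 0.15 SE, adjusted p = 0.333, edgeR). Both had Zac1 5 and 6 above EGFP 1 and below EGFP 2 and 3.

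Iigp1, an immunity-related GTPase, was at 10.1, 19.9 and 20.2 CPM in EGFP and at 11.3, 13.7 and 14.1 CPM in Zac1. EGFP 1 was the lowest of all 6 libraries (log2 fold change -0.36 ± 0.20 SE, adjusted p = 0.408, edgeR). Irgm1, a regulator of that family, varied less, at 427, 505 and 512 CPM against 416, 471 and 471 CPM (-0.09 ± 0.07 SE, adjusted p = 0.577, edgeR). Gbp3 had a fold change of -0.11 ± 0.15 (SE, adjusted p = 0.775, edgeR). Some reads of these families could be shared: 12.7% of the 50-base words of Gbp7 also occurred in other genes.

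Of the 3 sensors, Ifih1 encodes MDA5, which detects long double-stranded RNA. It was at 105, 124 and 135 CPM in EGFP and at 97.7, 105 and 104 CPM in Zac1, with EGFP 1 level with Zac1 5 and 6 (log2 fold change -0.25 ± 0.08 SE, adjusted p = 0.111, edgeR). Dhx58 encodes LGP2, a helicase of the same family that modulates MDA5. It was at 44.6, 69.5 and 71.3 CPM against 42.4, 58.2 and 58.5 CPM (-0.22 ± 0.15 SE, adjusted p = 0.520, edgeR).

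Zbp1, a sensor of Z-form nucleic acid that can trigger necroptosis, differed by library far more than by group. It was at 14.9, 30.7 and 32.3 CPM in EGFP and at 17.7, 27.7 and 30.4 CPM in Zac1. EGFP 1 was 0.472 times the mean of EGFP 2 and 3, and Zac1 4 was 0.609 times the mean of Zac1 5 and 6. The log2 fold change between the groups was -0.03 ± 0.23 (SE, adjusted p = 0.966, edgeR).

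The 4 transcription factors had small differences, with a median of -0.05 and every value below 0. Stat2 was at 209, 267 and 269 CPM in EGFP and at 196, 225 and 223 CPM in Zac1 (log2 fold change -0.21 ± 0.08 SE, adjusted p = 0.234, edgeR). Irf9, its DNA-binding partner, was at 89.7, 101 and 98.1 CPM against 89.1, 92.6 and 99.9 CPM, the least variable of the 42 genes by the ratio of EGFP 1 to EGFP 2 and 3 (-0.03 ± 0.06 SE, adjusted p = 0.847, edgeR). For Stat2, EGFP 1 was 0.781 times the mean of EGFP 2 and 3.

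Irf7, the factor that amplifies interferon production, was at 107, 147 and 154 CPM in EGFP and at 102, 133 and 152 CPM in Zac1 (-0.07 ± 0.13 SE, adjusted p = 0.850, edgeR). Irf1, which also responds to interferon gamma, was at 62.1, 78.2 and 77.2 CPM against 62.2, 74.8 and 78.9 CPM (-0.01 ± 0.10 SE, adjusted p = 0.978, edgeR). In both, EGFP 1 and Zac1 4 were nearly level and the other 4 libraries lay together above them.

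The antigen presentation genes varied by library, and 2 of the 4 had a fold change below 0. Tap1, a subunit of the transporter that carries peptides into the endoplasmic reticulum, was at 21, 33.9 and 36.6 CPM in EGFP and at 19.1, 25.1 and 30.3 CPM in Zac1 (log2 fold change -0.29 ± 0.18 SE, adjusted p = 0.466, edgeR). Psmb8 and Psmb9 encode inducible catalytic subunits of the immunoproteasome, and they flank Tap1 on chromosome 17. Psmb8 was at 12.5, 21.2 and 19.6 CPM against 14.0, 17.5 and 19.3 CPM (-0.06 ± 0.17 SE, adjusted p = 0.894, edgeR).

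In Psmb9 the libraries were at 5.40, 9.74 and 10.1 CPM in EGFP and at 5.79, 9.69 and 10.1 CPM in Zac1. The low library was 0.545 times the mean of the others in EGFP and 0.586 times in Zac1, and the groups were otherwise level (0.03 ± 0.23 SE, adjusted p = 0.969, edgeR). B2m, at 705, 780 and 860 CPM against 752, 795 and 808 CPM, had a fold change of 0.01 ± 0.06 (SE, adjusted p = 0.975, edgeR). Exons of Psmb9 and Tap1 overlap on opposite strands over 212 bases, and the sources do not say if reads were counted by strand.

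Of the 2 secreted products, Ifnb1 had the fewer reads. It encodes interferon beta itself and had 6, 17 and 16 reads in EGFP and 9, 9 and 19 reads in Zac1, or 0.400 to 1.14 CPM. Zac1 6 lay with EGFP 2 and 3, and the counts were too low to show a difference of this size (log2 fold change -0.28 ± 0.43 SE, adjusted p = 0.809, edgeR). Cxcl10, a chemokine for T cells, was at 57.3, 89.0 and 97.2 CPM in EGFP and at 64.9, 73.9 and 77.2 CPM in Zac1 (-0.17 ± 0.14 SE, adjusted p = 0.597, edgeR). In Cxcl10 all Zac1 values lay inside the EGFP range.

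Without EGFP 1 and Zac1 4, 22 of the 42 genes were lower in Zac1 and 0 higher (edgeR, adjusted p at 0.05), against 4.99% lower and 7.00% higher of 12188 genes. The median log2 fold change was -0.22, and 39 of 42 were below 0 (92.9%, against 49.3% of all genes). The largest differences were Mx1 at -0.74 ± 0.11 (SE, adjusted p = 1.1e-09), Rsad2 at -0.54 ± 0.06 (1.28e-18), Iigp1 at -0.52 ± 0.11 (0.000173) and Ifit3b at -0.51 ± 0.06 (9.25e-16). B2m (-0.03), Psmb9 (0.00), Irf1 (-0.01), Irf9 (-0.04), Zbp1 (-0.11) and Bst2 (0.06) did not pass. The pair was left out because it differed from its groups in these very genes, so their spread within groups was lowered by that choice. The fit rested on 2 libraries a group and shared the variance between genes almost wholly, with a prior of 1563 degrees of freedom against 10.02 with all libraries.

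**Figure D4:**
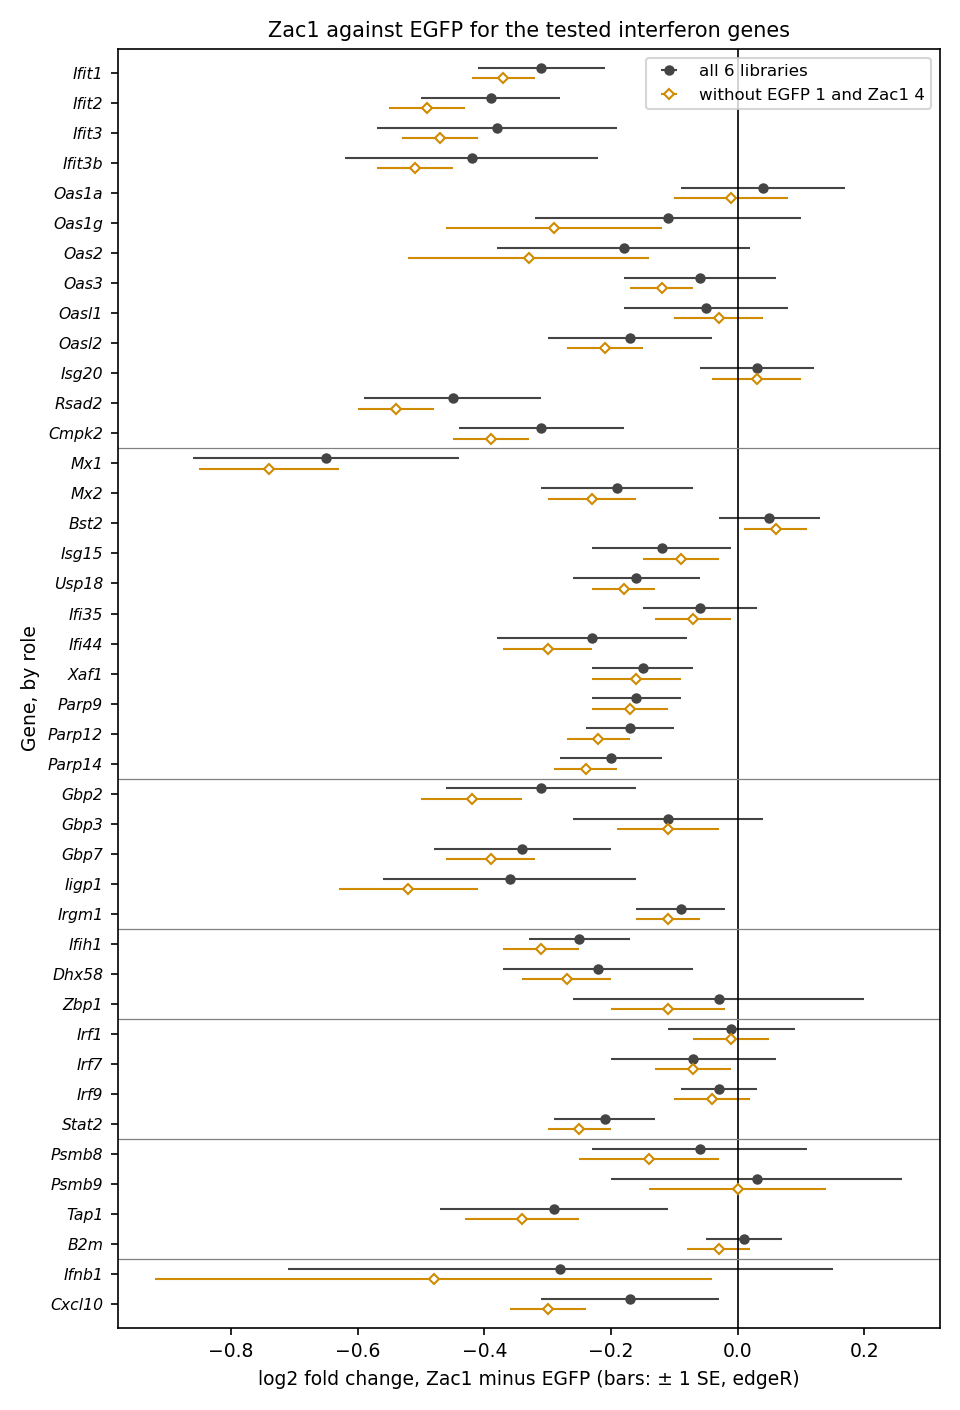
Log2 fold change, Zac1 minus EGFP, of the 42 tested genes by role, with all 6 libraries (dark circles) and without EGFP 1 and Zac1 4 (open diamonds); bars are ± 1 SE from edgeR. Most points lie left of 0 in both, from -0.65 to 0.05 and from -0.74 to 0.06, and the bars are shorter without the pair for most genes.

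The fold changes varied with the base composition of the genes. GC content was taken over the exons of each gene's longest annotated transcript. Across the 42 genes the log2 fold change had a Spearman correlation of 0.61 with it, and across 12116 tested genes the correlation was 0.40. These points share the same 6 libraries, and genes are not replicates. In the 14 genes of 39.3 to 46.3% GC the median was -0.29, in the 14 of 46.8 to 51.6% it was -0.17, and in the 14 of 51.9 to 57.4% it was -0.06. All tested genes within the same GC ranges had medians of -0.06, 0.00 and 0.04. With offsets for GC content fitted in each library, an alternative chosen after the data were seen, the 3 medians were -0.25, -0.17 and -0.10, and 39 of the 42 genes were below 0. That fit called 0 of the 42 lower, against 0.932% of all genes, with 10 at an unadjusted p under 0.05. It called 24 lower, against 3.44% of all genes, when EGFP 1 and Zac1 4 were also left out. Differences between libraries of a group varied with GC as well. Across all tested genes the ratio of EGFP 1 to EGFP 2 and 3 had a Spearman correlation of -0.22 with GC content. For the ratio of Zac1 4 to Zac1 5 and 6 it was -0.46. Across the 42 genes the correlations were 0.14 and -0.24.

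**Figure D5:**
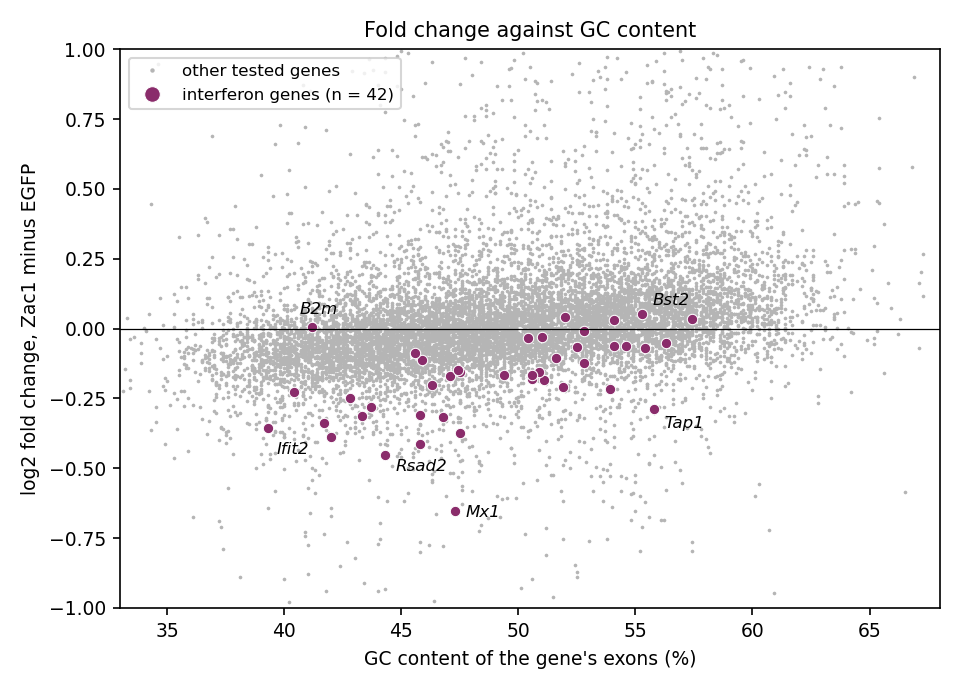
Log2 fold change, Zac1 minus EGFP, against the GC content of the exons of each gene's longest annotated transcript. The 42 interferon genes are purple and the other tested genes grey, of which 271 lie outside the axes. The interferon genes lie mostly below 0 at low GC and near 0 at high GC; B2m, at 41.2% GC and 0.01, lies apart from the other genes of low GC.

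Plagl1 was also lowest in EGFP 1 of the EGFP libraries and in Zac1 4 of the Zac1 libraries, as were 22.3% of all tested genes. In EGFP 2 and 3 its order was not that of the 42 genes, but it rested on few reads. Plagl1 had 79 reads in EGFP 2 (5.31 CPM) and 67 in EGFP 3 (4.53 CPM). The 42 genes summed to 5788 and 5984 CPM there. In the Zac1 group the order was the same for both. Plagl1 was at 6604, 7937 and 8072 CPM in Zac1 4, 5 and 6. The 42 genes summed to 4341, 5080 and 5224 CPM in these libraries. The part of Plagl1 in the level of the interferon genes was not tested.

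Other genes of the pathway, from lists that hold none of the 45, moved in part like them. Of 138 listed genes 96 were tested, 0 were higher and 2 were lower in Zac1 (0.668% of all tested genes were lower). The log2 fold change was below 0 for 65 (67.7%, against 50.5% of all tested genes), with a median of -0.08. Both that fell are among 46 tested further interferon-stimulated genes, of which 39 were below 0 (84.8%, against the same 50.5%; median -0.16). Samd9l, a restriction factor for poxviruses, fell by 0.23 on the log2 scale, from 543, 579 and 640 CPM in EGFP to 500, 516 and 487 CPM in Zac1 (SE 0.06, adjusted p = 0.0393, edgeR). Rnf213, a very large ubiquitin ligase, was at 1989, 2230 and 2161 CPM against 1820, 1907 and 1876 CPM, and it fell by 0.19 (SE 0.05, adjusted p = 0.0455, edgeR). In both, all Zac1 values lay below all EGFP values, as in 8.75% of all tested genes.

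These 2 calls depended on the settings. Their adjusted p ran from 3.5e-07 to 0.246 for Samd9l and from 2.18e-08 to 0.194 for Rnf213, and 0 of the 96 genes were lower with upper-quartile scaling, with scaling by library totals without Plagl1, with a minimum mean count of 50, or without EGFP 2, EGFP 3, Zac1 5 or Zac1 6. The count was 16 of the 96 lower without EGFP 1 and 24 without both EGFP 1 and Zac1 4, against 1.03% and 4.99% of all genes. Without Zac1 4 alone it was 4, near the 3.13% of all genes.

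Upstream of these genes the values lay closer to 0. Of the 20 interferon ligand genes other than Ifnb1, 12 were at 0 in every library and none reached the count minimum. The 14 genes of the receptors and of JAK-STAT signalling had a median of -0.04 and 0 passed the test. Pias1, an inhibitor of STAT signalling, was at 54.6, 47.3 and 53 CPM in EGFP and at 49.7, 46.5 and 42.4 CPM in Zac1 (-0.16 ± 0.08 SE, adjusted p = 0.330, edgeR). Among 16 tested genes of nucleic acid sensing 0 passed and the median was -0.04. Tbk1, the kinase that activates IRF3, was at 74.5, 71.5 and 73.7 CPM against 66.1, 58.5 and 63.2 CPM, without overlap (-0.23 ± 0.06 SE, adjusted p = 0.0627, edgeR). Tlr3, an endosomal receptor of double-stranded RNA, was at 66.2, 78.6 and 91.7 CPM against 63.0, 64.7 and 63.3 CPM (-0.31 ± 0.09 SE, adjusted p = 0.0855, edgeR).

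In the wider MHC class I pathway, EGFP 1 and Zac1 4 were low for most genes. All 20 listed genes beyond the 4 above were tested, 0 passed, and the median log2 fold change was -0.02. EGFP 1 was the lowest of its group for 17 and Zac1 4 for 16 of the 20, against 38.1% and 41.5% of all tested genes, with median ratios to the other libraries of 0.798 and 0.838. Nlrc5, the transactivator of these genes, was at 14.8, 25.1 and 26.0 CPM in EGFP and 11.4, 17.8 and 18.4 CPM in Zac1 (-0.46 ± 0.19 SE, adjusted p = 0.257, edgeR). Pdia3, a chaperone of the loading complex, was at -0.09 ± 0.04 (SE, adjusted p = 0.312, edgeR).

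The 3 constitutive proteasome subunits that the immunoproteasome replaces, Psmb5, Psmb6 and Psmb7, were not low in EGFP 1. None of them had its lowest EGFP value there, the median ratio of EGFP 1 to EGFP 2 and 3 was 1.13, and 0 passed the test. Psmb5 was at 28.0, 25.9 and 23.6 CPM in EGFP and 28.6, 26.3 and 30.5 CPM in Zac1 (0.14 ± 0.09 SE, adjusted p = 0.474, edgeR), and Psmb7 at -0.03 ± 0.06 (SE, adjusted p = 0.846, edgeR). Of 9 MHC class II genes only H2-DMa reached the count minimum, at 1.81 to 2.77 CPM over the 6 libraries (0.30 ± 0.22 SE, adjusted p = 0.557, edgeR).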

How the data were processed

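The 6 polyA RNA-seq libraries were analysed from 1 table of read counts per gene that the authors deposited. Its name calls it normalized, but all values are whole and none of the numbers from 1 to 40 is missing in any library, as in counts that were not scaled. The submitters' processing notes name FastQC, STAR, HTSeq and DESeq2, without versions. Per the labels' protocols, the kit was directional. The genome build is not given in the sources used here. No label says that libraries of a group are separate cultures, so the p-values cover the spread between these samples alone, and that spread may be technical.

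Symbols came from the GENCODE M21 name table (49326 of 49585 identifiers matched) and gene coordinates and exon lengths from GENCODE M21 (GRCm38). GC content was that of the longest GENCODE M21 transcript of each gene. Genes averaging 10 or more counts (12130) were scaled by TMM and tested two-sided, Zac1 minus EGFP, with edgeR 4.0.16 (R 4.3.3, glmQLFit and glmQLFTest, prior count 0.125) and Benjamini-Hochberg adjustment over all of them at 0.05. The SE is the log2 fold change divided by the square root of F. CPM values use TMM-scaled library sizes. Alternatives were other scalings and filters, a robust variance, DESeq2 1.42.0, voom with quality weights and limma (3.58.1), leaving out libraries, and GC offsets. The edgeR step was tested on simulated data. The lowest total, 14801240 reads, makes 3 reads 0.203 CPM; this floor covers counting error only.

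The members and all lists were chosen with earlier results of these data known. Values by library are given for the 4 genes of smallest p in each role, for Ifnb1, Cxcl10, B2m and Plagl1, and for up to 4 genes past the test, or else the 2 of smallest p, of each pathway list; 1 gene that this rule names is not reported here. EGFP reads were not analysed here.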

Additional observations from a re-analysis of the deposited data

How the results depend on the processing

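Of 449 values of the named genes under alternatives, 383 kept their side of the threshold, 66 passed only there, and none was called in the other direction. In 32 of the 449 the fold change differed in sign from the result given above. The median log2 fold change of the 42 genes was -0.22 to -0.15 with all libraries or without the pair, and -0.31 to -0.09 with 1 library left out, below 0 in each. No member was called higher under any alternative. Counts of lower calls among the members were 15 with no filter on low counts, 1 with DESeq2, 5 with voom and library weights, 22 without the pair EGFP 1 and Zac1 4 and 24 with GC offsets as well; leaving out 1 library gave 0 to 19.

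Over all genes, higher and lower calls were 731 and 248 with no filter, 190 and 51 with a minimum mean of 50 counts, 797 and 500 with voom, 853 and 608 without the pair, and 657 and 419 with GC offsets as well. Leaving out 1 library gave 187 to 584 higher and 19 to 379 lower, the extremes without Zac1 5 and without Zac1 4. Among related pathway genes, lower calls were 0 with upper-quartile scaling, with totals without Plagl1 and with a minimum mean of 50 counts, 12 with no filter, 5 with DESeq2, 14 with voom, 1 with limma, 1 with GC offsets, 24 without the pair and 23 with GC offsets as well, and 0 to 16 with 1 library left out; higher calls were 0 to 1 with 1 left out and 1 without the pair. Where it is not fewer or more libraries or genes tested, the cause was not tested.

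No paired analysis was possible because the groups share no replicate numbers (1, 2 and 3 against 4, 5 and 6). Whether libraries were prepared in pairs across the groups is unknown; EGFP 1 and Zac1 4 were both below the other 4 libraries for 38 of 42 genes, and the SEs and p-values treat all libraries as unpaired. Depth limits Ifnb1, Igtp, Ifi27l2a and Ifi47. GC offsets were chosen after the data were seen.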
